A study of Mus musculus with 8 samples.

Results

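The insulin-like growth factor (IGF) group described here held 8 of the 52636 genes in the deposited table. They were the ligands Igf1 and Igf2, the receptors Igf1r, Igf2r and Insr, the receptor substrates Irs1 and Irs2, and the binding protein Igfbp3. Of these, 7 were taken by name, and Igfbp3 was picked for its high values in exercise 3 and exercise 4, so the values of Igfbp3 are given as a description without a test. The samples were cells sorted as satellite cells (SCs), the resident stem cells of muscle, in 4 control and 4 exercise libraries measured by RNA sequencing. All mice were male C57B/6J, 10 weeks old at the start per the study's methods. Control mice were untrained, and exercise mice ran on a treadmill for 4 weeks, on 4 days per week, for 30 min per day at 12 m/min. About 800 cells per library were sorted by FACS, with a gate described as negative for CD45, CD11b, CD31 and Sca1 and positive for CD34 and integrin alpha-7, and were amplified with a kit for single-cell RNA. The study counts these samples as mice, but GEO's labels tie no library to an animal, so p-values measure the spread between libraries as labelled, which may in part be technical.

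IGF1 and IGF2 are secreted growth factors that signal through the tyrosine kinase receptor IGF1R, and insulin signals through the related receptor INSR. Both receptors pass the signal to IRS1 and IRS2, which recruit phosphoinositide 3-kinase and activate AKT, a pathway known for promoting growth of muscle and the proliferation and differentiation of myogenic cells. IGF2R binds IGF2 and carries it to lysosomes, and the IGF binding proteins, of which IGFBP3 is the main carrier in blood, hold IGFs outside the cell and limit or prolong their access to the receptor.

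Libraries held 2339966 to 3013354 reads on genes in control and 1011737 to 1200221 in exercise. FPKM (reads divided by gene length and by a library size) was deposited with a library size that was 0.924 to 1.58 times the read total in 7 libraries and 0.249 times in exercise 4, so a read counted for more in exercise 4 than elsewhere. The mitochondrial share of reads was 68.7% in exercise 4, 50.2% in exercise 3 and 2.09% to 15.3% in the other 6 libraries. Some libraries were alike in content, which was described and not tested. Over genes, chi-square divided by its degrees of freedom was 3.86 between exercise 1 and exercise 2, and 82.6 to 711 in the 11 other pairs within a group. For genes with at least 50 reads in exercise 4 and none in exercise 1, the share of reads in exercise 3 was 0.677 (median) of that in exercise 4, and for genes of exercise 1 absent from exercise 4 it was 0.299 of that in exercise 1. The same medians of control 4 against control 3 and control 1 were 0.714 and 0.281, and that of control 3 against control 2 was 0.674. The sort label was not borne out by all SC markers, since Pax7 and Itga7 were among the 5 of 12 SC markers with no read in any library, while Cd34 had reads in each of the 8 libraries. Muscle fibre markers summed to 30670 to 61555 FPKM in control and 15672 to 58065 in exercise, against 58.6 to 76.6 and 67.1 to 124 for SC markers. In such bulk samples fewer cells of a type and less RNA per cell cannot be told apart.

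The comparison asked how exercise changed the transcripts of the IGF axis in cells sorted as SCs. Igf1r fell in exercise, where 6 reads of it were found, all in exercise 3 and 4, against 17670 in the controls, 57 of them in control 1. The exercise libraries also held fewer reads on genes. Insr was read in 3 exercise libraries and in none of the 4 control libraries, without reaching an adjusted p under 0.05. Igf1 was read in all 8 libraries at overlapping levels. Igfbp3 was high in exercise 3 and exercise 4 and was not read in exercise 1 or exercise 2, so its exercise mean stood for neither pair. Irs1 had no read in any library.

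**Figure D1:**
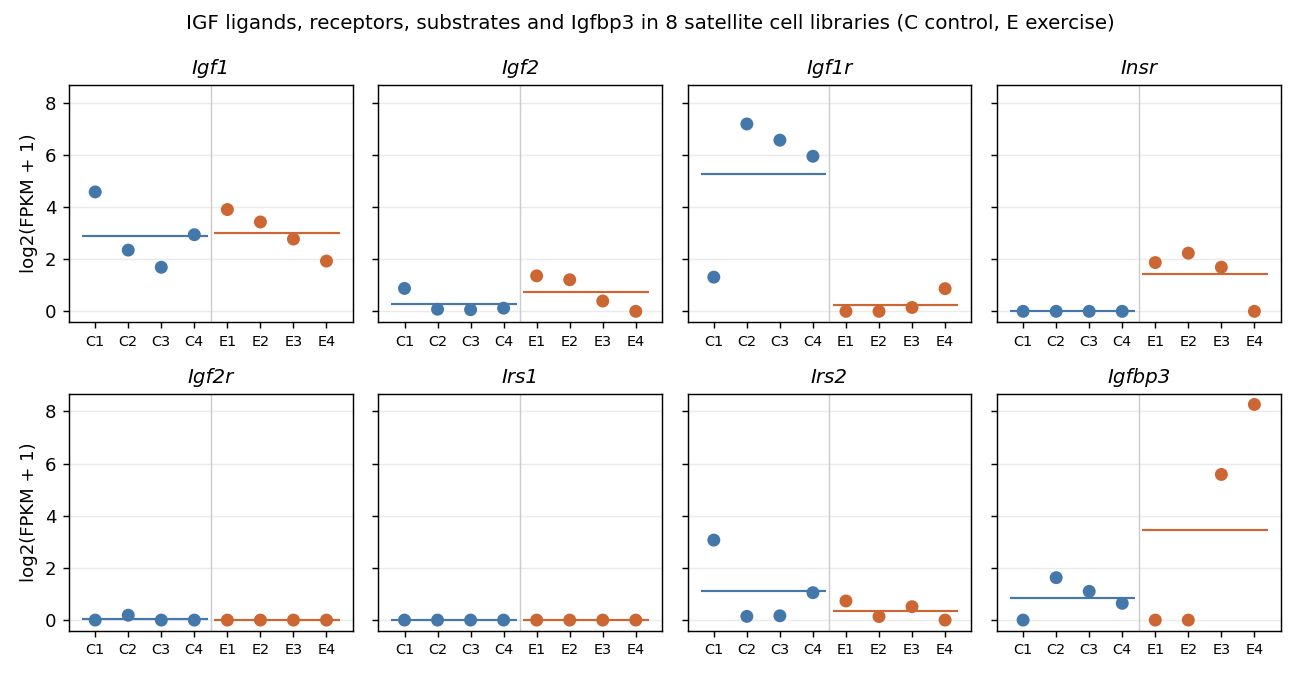
Values of the 8 genes in each library, as log2(FPKM + 1), with 1 point per library (C1 to C4 control, E1 to E4 exercise) and a line at the mean of each group of 4. Igf1r lies above all exercise libraries in each control library, Insr above 0 in exercise 1 to 3, and Igfbp3 at 5.58 and 8.27 in exercise 3 and 4.

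Igf1 (chromosome 10 of GRCm38, the mm10 build, 87858265 to 87937042, plus strand, protein coding) encodes the main IGF of adult muscle. It had 22.9, 4.09, 2.22 and 6.66 FPKM in control 1 to 4, from 520, 124, 86 and 263 reads. In exercise 1 to 4 it had 13.9, 9.75, 5.83 and 2.80 FPKM, from 231, 154, 64 and 8 reads. Control 1 was the highest library and control 3 the lowest, so each exercise value lay inside the control range of FPKM. Per read total exercise 4 lay below each control, at an RPKM of 0.699 against 2.88 in control 3. The control mean was 8.97 ± 9.46 FPKM (SD, n = 4) and the exercise mean 8.08 ± 4.84 FPKM. Without control 1 the control mean of Igf1 was 4.33 FPKM, below the exercise mean. In a limma fit of log2(FPKM + 1) to the 4328 genes whose mean reached 1 FPKM, its log2 fold change was 0.12 (95% interval -1.72 to 1.96, limma adjusted p = 0.908), an interval that spans changes in both directions. The sign of this difference turned to -0.10 when reads were scaled to the read total of each library, and with quantile normalization the difference was 1.66 (limma adjusted p = 0.17). Even between exercise 1 and exercise 2, the most alike of the pairs within a group, the intervals of Igf1 did not overlap, at 218 RPM (its share of reads on genes, with an exact 95% binomial interval of 191 to 248) and 152 (129 to 178).

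Igf2 (chromosome 7, 142650766 to 142666816, minus strand), the fetal growth factor that is also made by differentiating myoblasts, was close to the limit of detection. It had 11, 1, 1 and 2 reads in control 1 to 4 and 15, 12, 2 and 0 in exercise 1 to 4. In FPKM these were 0.838, 0.0571, 0.0448 and 0.0877 in control, and 1.57, 1.31, 0.315 and 0 in exercise. Exercise 1 and exercise 2 were above all controls, whereas exercise 4 was below them with a count of 0, which allows up to 1.82 FPKM there. Igf2 did not pass the filter, and its FPKM was not shown to differ (exact two-sided permutation p = 0.257, where 0.0286 is the smallest that 4 libraries against 4 allow). Fitted with no filter, its log2 fold change was 0.46 (limma adjusted p = 0.366). Such limits and intervals account for counting error alone, because reads of amplified cDNA do not stand for separate molecules.

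H19 is the noncoding RNA that neighbours Igf2 and is imprinted together with it. It had 116, 75.2, 46.0 and 53.1 FPKM in control 1 to 4, from 426 to 630 reads. In exercise it had 0 reads in exercise 1 and 2, 3 reads in exercise 3 and 1 read in exercise 4. The groups did not overlap, and H19 fell by 5.51 on the log2 scale (limma adjusted p = 0.000895, standard error 0.68). H19 passed the filter through the control libraries alone and so had to differ, and with no filter its limma adjusted p was 0.00154. In the 8 fits that left out 1 library the limma adjusted p was between 0.000203 and 0.0061. Igf2 had 1, 1 and 2 reads in control 2 to 4, which held 426 to 546 reads of H19.

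Igf1r (chromosome 7, 67952827 to 68233668, plus strand), the receptor for both ligands, had the largest log2 fold change of the members tested. It had 1.48, 144, 93.5 and 60.6 FPKM in control 1 to 4, from 57, 7426, 6130 and 4057 reads. Exercise 1 and exercise 2 had no read, exercise 3 had 2 reads (0.107 FPKM) and exercise 4 had 4 reads (0.827 FPKM). Control 1 was far below the other controls, yet each control value was above each exercise value. Pooled over libraries, Igf1r took 1635 RPM in control (exact 95% binomial interval 1611 to 1659) and 1.36 in exercise (0.497 to 2.95). These intervals leave out the spread between libraries. Control 1 to 4 were at 24.4, 2787, 2034 and 1454 RPM, and none lay inside the control interval. The control mean of Igf1r was 75.0 ± 59.9 FPKM (SD, n = 4) and the exercise mean 0.234 ± 0.399 FPKM. The change was -5.00 on the log2 scale (95% interval -7.68 to -2.31, limma adjusted p = 0.0154, exact two-sided permutation p = 0.0286). Igf1r passed the filter through the control libraries alone, so once it had passed it had to differ, and with no filter its limma adjusted p was 0.034.

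Of all genes tested, 35.6% had an adjusted p under 0.05, 26.8% with a fall in exercise, and 24.0% had exercise values all below the control values. Falls were thus common in these libraries, although these shares count falls of any size. Over all genes tested the median log2 fold change was -1.42. With quantile normalization it was -0.44, and calls were 566 higher and 375 lower, against 380 and 1161 without it, while Igf1r stayed lower (-4.08, limma adjusted p = 0.0395). Among the 4 genes of the group that were taken by name and passed the filter, Igf1r was called, and Igf1, Insr and Irs2 were not. Leaving out control 1 moved the change of Igf1r to -6.31 (limma adjusted p = 9.41e-05). The adjusted p rose to 0.0514 without control 4 and without exercise 3 alike, and was 0.463 with exercise 1 and 2 averaged and control 4 and exercise 3 left out, where the change was -4.58. The share of Igf1r in control 4 was 0.715 of that in control 3, where the median of genes found in control 3 and not in control 1 was 0.714. Igf1r had 57 reads in control 1 and so was not itself such a gene. Igfbp3, absent from control 1, kept 0.540 on 14 and 7 reads, below the lower quartile of 0.628. Of the 11 endothelial markers 3 had reads, and 8, Pecam1 and Cdh5 among them, were at 0 in each library. Their sum was 0.0925 FPKM in control 1, 1076 to 2994 in control 2 to 4 and 4.42 to 26.2 in exercise. In control 2 to 4 the sum was nearly all Kdr, a receptor for vascular endothelial growth factor, which had 0, 82786, 58824 and 38702 reads in control 1 to 4 and at most 8 in an exercise library, and so moved with Igf1r. Tek, the angiopoietin receptor, went the other way, with 1 read in control 1, none in control 2 to 4 and 189, 194, 77 and 6 reads in exercise 1 to 4, and Flt1 had 0 to 7 reads in a control library and none in exercise. The part of Kdr in the result was not tested.

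Insr (chromosome 8, 3122061 to 3279617, minus strand), the insulin receptor, had no read in any control library. It had 61, 81 and 34 reads in exercise 1 to 3, which are 2.65, 3.69 and 2.23 FPKM, and none in exercise 4. A count of 0 allows 0.0548 to 0.0951 FPKM in the control libraries and 0.757 FPKM in exercise 4, so exercise 4 was below exercise 1 to 3 beyond this limit. The exercise mean of 2.14 ± 1.56 FPKM (SD, n = 4) was at least 31.0-fold higher than the mean of the control limits, with each control library set to 3 reads. On the log2(FPKM + 1) scale the change was 1.45 (95% interval 0.24 to 2.66, limma adjusted p = 0.0584, exact two-sided permutation p = 0.143). Insr passed the filter through exercise alone, so once it had passed it had to differ, and with no filter its limma adjusted p was 0.101. Leaving out exercise 4, the only exercise library without a read, gave 1.93 (limma adjusted p = 0.0059, exact two-sided permutation p = 0.0571), and the 4 fits that left out a control library gave limma adjusted p-values of 0.0623 to 0.156. Of all genes tested, 8.78% were called higher in exercise, and among the 9029 genes with a read in any library, 6.89% had reads in exercise libraries and none in control libraries.

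Insr moved with other markers within the exercise group. Markers of fibro-adipogenic progenitors, all 12 of which had reads, summed to 9595, 9880 and 5480 FPKM in exercise 1 to 3 and 4024 in exercise 4, against 3084 to 4848 in control. Smooth muscle and pericyte markers summed to 87.5, 89.3 and 45.6 in exercise 1 to 3 and 5.72 in exercise 4, against 2.88 to 46.1 in control, with 6 of 9 at 0 in each library, Rgs5, Cspg4 and Notch3 among them. Tenocyte markers, all 6 of which had reads, summed to 1096, 1063 and 574 in exercise 1 to 3 and 85.9 in exercise 4, against 370 to 877 in control. Per read total, the fibro-adipogenic sums were an RPKM of 15160, 15581, 5062 and 1004 in exercise 1 to 4, against 4183 to 4752 in control. Exercise 4 then lay below each control. The part of the markers named here in the values of Insr was not tested.

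Igf1r and Insr were thus seldom read in the same library. Control libraries held Igf1r and no Insr, exercise 1 and 2 held Insr and no Igf1r, exercise 3 held 34 reads of Insr and 2 of Igf1r, and exercise 4 held 4 reads of Igf1r alone. Set beside the ligand, which needs no scaling between libraries, the FPKM of Igf1 was 15.5 times that of Igf1r in control 1 and 0.0283, 0.0238 and 0.110 times in control 2 to 4. It was 54.3 times in exercise 3 and 3.39 times in exercise 4, on 2 and 4 reads of Igf1r. Control 1 thus lay between exercise 3 and exercise 4 in this ratio, apart from control 2 to 4.

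**Figure D2:**
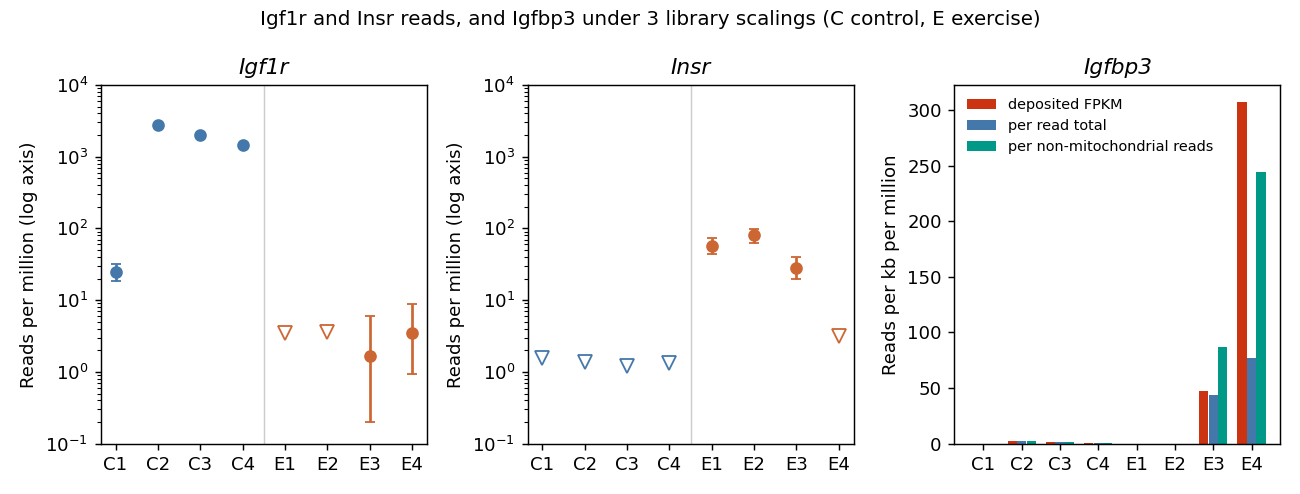
Left and middle, Igf1r and Insr as parts of the reads on genes (RPM) of each library on a log axis, with exact 95% binomial intervals, and open triangles at the upper bound where no read was found. Right, Igfbp3 as deposited FPKM and as reads per kilobase scaled to the read total or to the non-mitochondrial reads. Exercise 4 is at 307 on the deposited scale and at 76.6 per read total.

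Igf2r (chromosome 17, 12682406 to 12769664, minus strand), the scavenger of IGF2, had 4 reads in control 2 (0.138 FPKM) and none in the other 7 libraries (exact two-sided permutation p = 1). A count of 0 allows 0.0798 to 1.10 FPKM in those libraries, and no difference was detected. Of all genes with a read, 52.4% had reads in control and none in exercise. Airn, the antisense RNA that overlaps Igf2r, had 3 reads in control 3 and 5 in control 4, and none elsewhere. None of the other 7 genes overlapped a gene with reads.

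Of the receptor substrates, Irs1 (chromosome 1, 82233101 to 82291416, minus strand), the main insulin receptor substrate of muscle, had no read in any library. A count of 0 allows 0.0823 to 1.14 FPKM. Irs2 (chromosome 8, 10984681 to 11008458, minus strand), its homologue, had 107, 2, 3 and 27 reads in control 1 to 4, which are 7.38, 0.103, 0.122 and 1.07 FPKM. In exercise 1 to 4 it had 7, 1, 3 and 0 reads, which are 0.662, 0.0991, 0.428 and 0 FPKM. Control 1 alone stood high, and the other 7 libraries overlapped. The control mean was 2.17 ± 3.50 FPKM (SD, n = 4) and the exercise mean 0.297 ± 0.304 FPKM, with a log2 fold change of -0.76 (95% interval -2.26 to 0.74, limma adjusted p = 0.358). Without control 1, Irs2 no longer passed the filter.

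Igfbp3 (chromosome 11, 7206086 to 7213923, minus strand) had 0, 2.09, 1.15 and 0.561 FPKM in control 1 to 4, from 0, 20, 14 and 7 reads. It had no read in exercise 1 and exercise 2, 163 reads in exercise 3 (47.0 FPKM) and 277 reads in exercise 4 (307 FPKM). Exercise 3 and 4 lay far above the controls. A count of 0 allows 0.573 FPKM in exercise 1 and 0.601 in exercise 2, under the values of control 2 and 3 but not under that of control 4. The control mean was 0.948 ± 0.891 FPKM (SD, n = 4) and the exercise mean 88.5 ± 147 FPKM, with an SD in exercise that exceeded the mean. These values chose the gene, so no test was made. The log2 difference was 2.62, was 1.02 without exercise 4 and 3.77 without exercise 1, and was -0.88 with array weights, which weight the libraries by their fit. As the rule names 2 libraries and no threshold, no member lies just outside it.

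The size of the difference between the high libraries depended on the scale. Exercise 4 was at 307 and exercise 3 at 47.0 on the deposited FPKM scale. Divided by the read total in place of the deposited library size, exercise 4 was at an RPKM of 76.6 and exercise 3 of 43.4. Divided by reads outside mitochondrial transcripts, they were at 244 and 87.2. On each of these scales both were above each control, where the highest was control 2 at 2.09, 2.40 and 2.70. In exercise 3, Igfbp3 kept 0.567 of its share of reads in exercise 4, against a median of 0.677 and a lower quartile of 0.606 for genes of exercise 4 absent from exercise 1. Muscle fibre markers summed to 58065 FPKM in exercise 4, 18522 in exercise 3 and 15672 and 16683 in exercise 1 and 2, but per read total they summed to an RPKM of 14481, 17111, 24761 and 26310 in the same order, so their order turned round with the scale. The mitochondrial share of reads moved with Igfbp3 within exercise, at 68.7% and 50.2% in exercise 4 and 3 and 7.85% and 7.56% in exercise 1 and 2, and its part in the values of Igfbp3 was not tested. Of the 10 macrophage markers, 9 were at 0 in each library, and Cd14 had 5 reads in control 1 and 3 in control 4 alone.

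The patterns most like that of Igfbp3 over the 8 libraries were those of Otud6b, Idh2, Txlnb, 2900097C17Rik and Fam98a, with a Pearson correlation of log2(FPKM + 1) from 0.993 to 0.999. Idh2, the mitochondrial NADP-dependent isocitrate dehydrogenase, had 0, 0.757, 0.297 and 0.485 FPKM in control 1 to 4, none in exercise 1 and 2, and 5.58 and 17.4 in exercise 3 and 4. Of the 4327 genes compared, 162 had a correlation of at least 0.95 with Igfbp3, so the pattern was not particular to it. For Igf1r 623 genes did so, with Hspb8, Arhgef25 and Rnaset2a the closest (0.997, 0.996 and 0.996). For Insr 229 genes did so, led by Psme1, Triap1 and Rps4l (0.999 each), and for Irs2 125, led by Pttg1ip, Krtcap2 and Vat1 (0.983, 0.981 and 0.979). For Igf1 5 genes did so, with Csnk2b, Abca8b and Wdr26 closest (0.987, 0.986 and 0.954). These correlations describe 8 libraries that differ in depth and are in part alike in content.

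Igfbp3 was compared with the other IGF binding proteins within each library, where the library size cancels. Of the family, Igfbp3, Igfbp4, Igfbp5, Igfbp6 and Igfbp7 had reads, while Igfbp1, Igfbp2, Igfbpl1 and Igfals had none. In control 2 to 4, Igfbp6, which prefers IGF2, made up 98.2%, 95.9% and 93.3% of the summed FPKM of the 5 genes. In control 1, Igfbp7, a secreted protein with low affinity for IGFs, made up 54.0%, Igfbp6 27.3% and Igfbp5 12.4%. Exercise 1 and 2 were divided between Igfbp6 (52.5% and 51.6%) and Igfbp7 (46.8% and 48.0%). Exercise 3 held 44.3% Igfbp6, 41.1% Igfbp7 and 13.8% Igfbp3, and exercise 4 held 87.7% Igfbp3, 6.56% Igfbp7 and 4.46% Igfbp6.

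Igfbp3 was thus the leading binding protein in exercise 4 alone, and made up at most 0.201% of the sum in a control library. With Igfbp3 set aside, the share of Igfbp7 was between 46.8% and 53.3% in the 4 exercise libraries and between 0.456% and 54.0% in the controls (exact two-sided permutation p = 0.143). The share of Igfbp6 was between 36.2% and 52.5% in exercise and between 27.3% and 98.4% in control (exact two-sided permutation p = 0.143). In both cases control 1 lay beyond the exercise libraries on the side away from control 2 to 4. The share of Igfbp5, a binding protein of differentiating myoblasts, was between 0.804% and 12.4% in control and between 0.255% and 1.34% in exercise, also without Igfbp3, and was not shown to differ (exact permutation test, p = 0.114). The share of Igfbp4, again without Igfbp3, was between 0.129% and 6.33% in control and, in exercise, between 0.0518% and 9.12% (exact two-sided permutation p = 0.971).

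**Figure D3:**
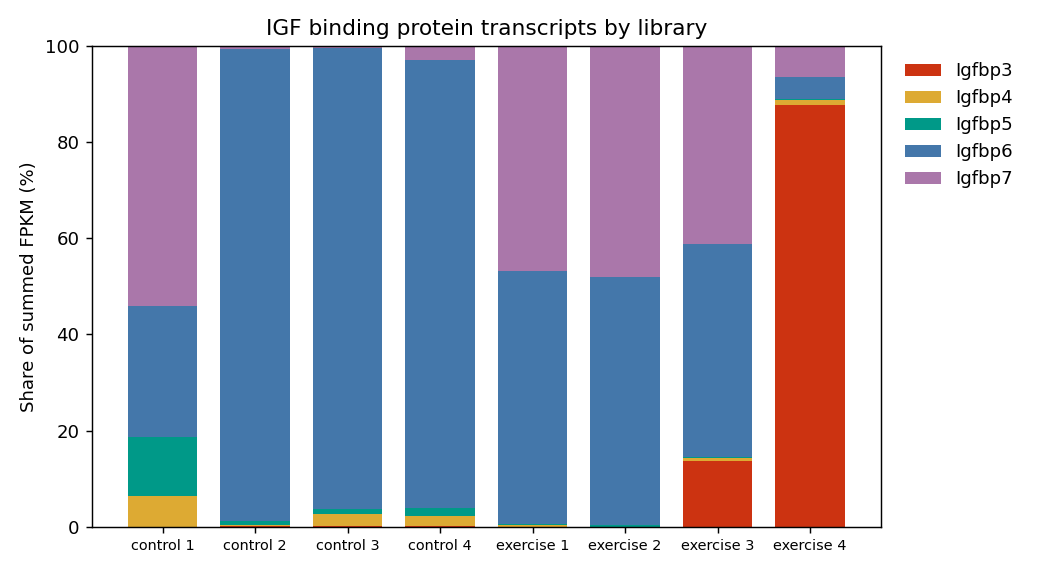
Share of each IGF binding protein with reads in the summed FPKM of all 5, in percent, for each library. Igfbp6 fills 93.3% to 98.2% of control 2 to 4, and Igfbp3 fills 87.7% of exercise 4.

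Of 60 other genes of the IGF pathway, chosen by name, 40 were read at least once and 19 passed the filter. With limma, 2 of these rose, 4 fell and 13 were not called at an adjusted p under 0.05, or 31.6% called, against the 35.6% of all genes tested. The median log2 fold change of the 19 was -1.11, against -1.42 for all genes tested. Of 8 genes for the other binding proteins, the acid-labile subunit included, 4 passed, Igfbp7 rose by 3.51 on the log2 scale (limma adjusted p = 0.0287) and Igfbp5 fell by 1.83 (limma adjusted p = 0.0385). Igfbp5 had 5.97 to 8.32 FPKM in control and 0.578 to 2.19 in exercise, so its groups did not overlap (exact two-sided permutation p = 0.0286). The same held in this direction for 24.0% of all genes tested. With quantile normalization the difference of Igfbp5 was -0.032 (limma adjusted p = 0.974). For Igfbp7, exercise 4 at 23.0 FPKM lay below control 1 at 30.3, so the groups overlapped (exact permutation test, two-sided, p = 0.0571). Of 7 proteases of binding proteins and their inhibitors, 3 passed and Htra1, a secreted serine protease, rose. It had 21.7, 1.93, 2.14 and 6.80 FPKM in control 1 to 4 and 248, 235, 118 and 9.64 in exercise 1 to 4, and rose by 3.87 on the log2 scale (limma adjusted p = 0.0328). Here too exercise 4 lay below control 1 (exact two-sided permutation p = 0.0571). Igfbp7 and Htra1, like Insr, were lowest within exercise in exercise 4, where the sums of fibro-adipogenic, smooth muscle and tenocyte markers given above were lowest as well, and the part of these markers in both rises was not tested.

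Among the genes that act after the receptors, 6 of 13 adaptors and regulators passed, and Grb2, the adaptor that links receptors to Ras, fell. Grb2 had 0, 3.81, 10.5 and 6.63 FPKM in control 1 to 4 and no read in exercise (log2 fold change -2.18, limma adjusted p = 0.047, exact two-sided permutation p = 0.143). Of 12 genes of the phosphoinositide 3-kinase and AKT step, 2 passed. Akt1 fell by 3.29 on the log2 scale (limma adjusted p = 0.0365), with no read in exercise and, like Grb2, none in control 1 (exact two-sided permutation p = 0.143). Both passed the filter through control libraries alone, so once they had passed they had to differ, and with no filter the limma adjusted p was 0.0709 for Akt1 and 0.0947 for Grb2. Kdr, as given above, was also read in control 2 to 4 and not in control 1, and its part in these falls was not tested. Akt2, under the filter, had 72, 6, 11 and 26 reads in control 1 to 4, and 2 in exercise 1 were its only reads in exercise. Of 10 targets of AKT signalling 2 passed, Gsk3b (log2 fold change 1.42, limma adjusted p = 0.198) and Tsc2 (-1.60, limma adjusted p = 0.138). The calls of Igfbp5, Igfbp7, Htra1, Grb2 and Akt1 rested on the libraries in the fit, and none of the 5 was kept with no filter. The adjusted p of Igfbp5, Igfbp7 and Htra1 was under 0.05 in 2 of the 8 fits that left out 1 library, and that of Grb2 and Akt1 in 1 of 8. Scaled to the read total, limma called 5 pathway genes, all lower (8 in both directions at an unadjusted p under 0.05), and Igfbp7 (3.12, limma adjusted p = 0.0896) and Htra1 (3.55, limma adjusted p = 0.0839) were not among them.

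**Figure D4:**
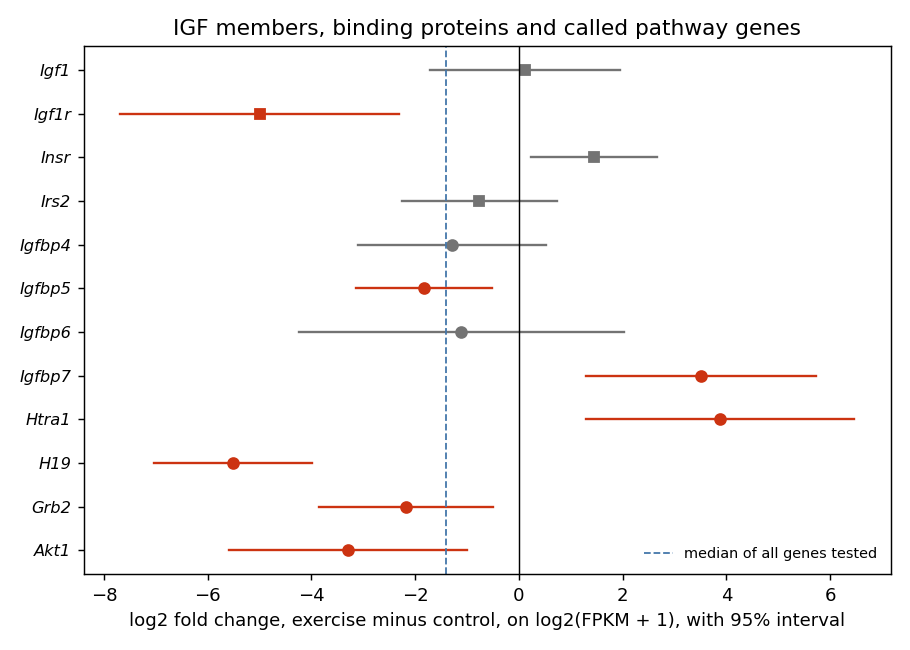
Log2 fold change of exercise minus control on log2(FPKM + 1) with its 95% interval from limma, for the members, other binding proteins and called pathway genes that passed the filter, without Igfbp3. Squares mark the 4 genes of the group taken by name, red an adjusted p under 0.05, and the dashed line the median of all genes tested (-1.42).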

How the data were processed

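The authors deposited 1 table of FPKM values for 8 libraries. Per the methods and the submitters' processing notes, reads were aligned with Bowtie 0.12.9, FPKM were computed with Cufflinks 2.1.1 and reads were counted with HTSeq, on mm10. All 8 genes had the coordinates of GENCODE M21 for GRCm38. Multiplied by gene length, all values above 0 were whole multiples of 1 step per library (tolerance 0.001), which gave the reads. Rows that share a symbol were summed.

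The fit was made with limma 3.58.1 (R 4.3.3) to log2(FPKM + 1) of the 4328 genes whose mean reached 1 FPKM, using eBayes with a variance trend, and p-values were adjusted by the Benjamini-Hochberg procedure. It took the place of the study's count test, because FPKM were what was deposited, with voom on the recovered reads as an alternative. It was also run on simulated data. The simulated libraries were drawn independently, without the likeness between some of the real ones, so that run does not show how often calls are wrong here. Fold changes on the log2(FPKM + 1) scale understate those of low genes. Single genes and shares were also compared by exact two-sided permutation tests of the mean over 70 assignments, in Python 3.11.15 with scipy 1.17.1. Named genes were the 8 members, called pathway genes, binding proteins with reads, Akt1, Akt2 and the genes most correlated with each member. Gsk3b, Tsc2, Gab1, Pappa2, Grb10 and marker genes were named after their values were seen. Binding proteins without reads are named as such, and most other pathway genes are given by counts. Members and lists were chosen with earlier results of these data known. The alternatives are a pseudocount of 0.1, other filters and scalings, no trend, array weights, the replicate number as a block, voom on the recovered reads, and fits with fewer libraries. Scaling to non-mitochondrial reads was added after seeing the data. A count of 0 was taken to allow 3 reads.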

Additional observations from a re-analysis of the deposited data

Results flagged for a closer look

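Within groups of 4 libraries, 20 groups of values of the 8 genes and of Igfbp4 to Igfbp7 were searched for a library whose gap to the nearest other, as a share of the whole range, exceeded Dixon's 95% critical value. There were 5. Chance gives about 1 in 20 for normally distributed values, a rate that was not shown to hold for FPKM with counts near 0. It does not apply to Igfbp3, which was picked for this value, or to Igf2r, which had reads in a single library. Igfbp3 in exercise 4 had 307 FPKM, against 47.0 in the next library and 0 in the lowest, and is the value for which it was picked. Control 1 had 0.838 FPKM of Igf2, against 0.0448 to 0.0877 in the other controls, and 7.38 FPKM of Irs2, against 0.103 to 1.07. The value of 0.827 FPKM of Igf1r in exercise 4 rests on 4 reads, against 0 to 2 reads in the other exercise libraries. The value of 0.138 FPKM of Igf2r in control 2 also rests on 4 reads. Per read total, the gaps of Igfbp3 (0.433 of the range), Igf1r (0.519) and Irs2 (0.802) no longer exceeded the critical value, and those of Igf2 (0.912) and Igf2r did.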

How the results depend on the processing

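The number of genes called over all genes, 1541, was 840 with no filter, 941 with quantile normalization (566 higher and 375 lower, against 380 and 1161), 2978 with array weights, 596 with exercise 1 and 2 averaged, and 0 in limma when control 4 and exercise 3 were dropped as well (469 at an unadjusted p under 0.05). Leaving out 1 library gave 527 (exercise 3) to 1899 (control 1). The number of other pathway genes called, 6, was 1 with no filter, 14 with array weights, 1 with exercise 1 and 2 averaged and 0 in limma when control 4 and exercise 3 were dropped as well, and ranged from 1 to 12 without 1 library. With quantile normalization it was 4, with 3 higher and 1 lower, against 2 and 4 without it. Akt1 (limma adjusted p = 0.0628) and Grb2 (limma adjusted p = 0.134) were then not called.
Without control 1, 12 pathway genes were called, and 1 in each fit without control 2, 3 or 4 or without exercise 1, 2 or 3. In the fit with 0 pathway genes called, 1 had an unadjusted p under 0.05.

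The difference of Igf1, 0.12, was 1.66 with quantile normalization (not called), -0.10 scaled to the read total, -0.27 with voom, -0.094 with exercise 1 and 2 averaged, -0.066 when control 4 and exercise 3 were dropped as well, and -0.28 to 0.68 without 1 library, and with array weights it was 1.59 and called (limma adjusted p = 0.0093). Igf1r was -7.33 with a pseudocount of 0.1 and -9.28 with voom, and called in both. It was -4.58 and not called with exercise 1 and 2 averaged and control 4 and exercise 3 left out, and -6.31 to -4.35 without 1 library. Insr passed the threshold with a pseudocount of 0.1 (3.64), quantile normalization (2.02), array weights (2.03), voom (6.39) and scaling to non-mitochondrial reads (1.93), and was 1.45 to 1.93 without 1 library. Without exercise 1, 2 or 3, or with exercise 1 and 2 averaged, Insr did not pass the filter and has no value. With quantile normalization Irs2 was 0.47 and Igfbp4 0.15, and with array weights Irs2 was 0.071, each reversed. The causes were not tested. A filter of 1 FPKM in 4 libraries left no value for Insr and Irs2.

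Libraries with the same number hardly deviated together from their group means (correlations of -0.017 to 0.039). The exercise library most correlated with control 2, 3 and 4 was that of the same number, and with control 1 it was exercise 4. Correlations this close to 0 do not show a pairing and cannot exclude one. With the replicate number as a block 1059 genes were called. Low reads limit Igf2, Igf2r, Irs1 and Irs2.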

Other observations

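Of the 40 other IGF pathway genes with a read, 15 (37.5%) had reads in control and none in exercise, and 2 (5%) had reads in exercise and none in control, against 52.4% and 6.89% of all genes with a read. Exercise libraries held fewer reads, whose part in these counts was not tested. The 2 genes were Pappa2, a protease of IGF binding proteins, and Grb10, an adaptor that restrains the insulin and IGF receptors, both named after their values were seen. Pappa2 was read in the libraries that held most Igfbp3, with 5 reads in exercise 3 (0.438 FPKM) and 17 in exercise 4 (5.73 FPKM). Gab1, an adaptor of receptor kinases named in the same way, had 0.422 ± 0.448 FPKM (SD, n = 4) in control, 0 in exercise 1 and 2, and 2.66 and 23.2 FPKM in exercise 3 and 4. Neither passed a test (limma adjusted p = 0.333 for Gab1, and 0.271 for Pappa2 with no filter).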
